A study of Homo sapiens with 36 samples.

Results

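The genes of cholesterol and fatty acid synthesis were followed as mRNA in HCT-116 cells treated with oxaliplatin (OXPT). The group was a fixed list of 31 genes, taken by symbol from the 62757 genes of the count tables: enzymes of both pathways, the sterol carrier gene *STARD4*, and the genes of the SREBP system that controls them. Each symbol matched 1 gene, and all 31 reached the count minimum used for testing, a mean of at least 64 raw counts in at least 1 group, along with 12356 genes in all. In every one of the 8 groups 30 members reached that mean; *CYP51A1*, the least abundant, did not. HCT-116 is a line of colorectal cancer cells, and OXPT is a platinum drug that damages DNA. RNA-seq libraries of polyA mRNA were made from WT cells and from *FBXW7*-/- (KO) cells, a purchased knockout for which the sources do not say whether it is 1 clone. KO cells received the control esiRNA (esiCT), the esiRNA against *HDAC4* (esiHDAC4), or compound #11, a degrader of class IIa HDACs, together with esiCT. Each of these 3 conditions was left untreated or given OXPT at 50 µM for the last 24 h of a 48 h transfection, and WT cells were likewise untreated or given OXPT, which makes 8 groups of 3 libraries. For #11 the labels give 1 µM in one entry and 10 µM in another, and for the 6 WT libraries one entry names the control and another esiHDAC4, so the esiRNA of WT is not settled. The labels do not state that replicates were separate cultures, so the p-values measure the spread between these libraries, which may be technical.

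Cells make cholesterol from acetyl-CoA through mevalonate, squalene and lanosterol, and fatty acids from acetyl-CoA through malonyl-CoA. The transcription factors SREBP1 and SREBP2, made from *SREBF1* and *SREBF2*, switch on the enzymes of both pathways: *SCAP* carries the precursors from the endoplasmic reticulum to the Golgi for cleavage when sterols are low, and *INSIG1* holds *SCAP* back when sterols are high. *FBXW7*, the receptor subunit of a ubiquitin ligase, marks the nuclear SREBPs for degradation. RNA-seq measures the mRNAs and not these proteins.

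Promoters of RefSeq, from 250 bases before to 50 bases after the transcript start in GRCh38.p14, were at hand for 27 of the 31 members, in 37 entries (*FDFT1*, *ACAT2*, *FASN* and *SQLE* had none). SREBPs bind sterol regulatory elements beside factors that bind CCAAT boxes and GC boxes, so these letters were searched on both strands. The CCAAT box (CCAAT, on the other strand ATTGG) was found in 67.6% of the members' entries and in 34.6% of all 35116 promoters of this length. The GC box (GGGCGG) stood in 89.2% and 45.0%, the E-box CACGTG, which reads alike on both strands, in 13.5% and 7.26%, and the core TCACNCCAC of a sterol regulatory element in 2.7%, the promoter of *SREBF2* alone, and 1.13%. The promoters compared were neither limited to genes expressed in these cells nor matched for base content, and some genes have several entries. Only exact matches of these letters within these windows were counted. A member without the core TCACNCCAC is therefore not shown to lack a sterol regulatory element. With OXPT in KO esiCT cells the median log2 fold change was -0.88 over the 21 genes with a CCAAT box and -0.53 over the 6 without. For the E-box it was -1.21 over 4 genes and -0.80 over the 23 without. The GC box was missing from 1 gene, at -0.50, against -0.89 over the 26 with it. The sterol regulatory element core was in 1 gene, at -0.80, against -0.89 over the 26 without. These values are given as a description. Windows of 30 bases are shown for *SREBF2*, *HMGCS1*, *INSIG1*, *LSS* and *SCD*, members described below, with the sterol regulatory element core of *SREBF2* and the CCAAT box of the others in capitals, 5′ to 3′ on the strand of the gene.
*SREBF2*, chr22:41832962-41832991, plus strand: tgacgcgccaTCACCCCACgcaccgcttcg
*HMGCS1*, chr5:43313495-43313524, minus strand: ctaccggccgcgATTGGctgtgggagccac
*INSIG1*, chr7:155297696-155297725, plus strand: cgccggcctcccATTGGttgcggccgcctc
*LSS*, chr21:46228907-46228936, minus strand: cgcggcgctctgATTGGttgcgtgggcgtc
*SCD*, chr10:100347035-100347064, plus strand: aattcccttcggCCAATgacgagccggagt

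Libraries held 10725966 to 20527222 counts on genes, with a median of 14510758. Levels are TMM-normalized CPM, the counts scaled to a common library size. Several of the libraries numbered 3 stood apart from their groups: on the first principal component, with 44.8% of the variance, WT with OXPT number 3 lay at -95.7, KO esiCT with OXPT number 3 at -86.4, KO esiHDAC4 with OXPT number 3 at -62.2 and untreated WT number 3 at -41.4. Untreated KO esiCT number 3 lay at 6.86, against 42.1 and 44.3 in its group, and the other 3 libraries of that number lay nearer to theirs. Unmapped reads made up 22.3% of KO esiCT with OXPT number 3 and 13.8% of untreated WT number 3, against a median of 9.29%. *HDAC4* stood at 18.4, 14.0 and 24.9 CPM in untreated KO esiCT and 8.94, 8.80 and 14.9 CPM in untreated KO esiHDAC4. In untreated WT, whose esiRNA labels conflict, it stood at 18.8, 25.6 and 21.6 CPM, above every untreated KO esiHDAC4 library and overlapping KO esiCT. With OXPT it had a mean of 8.98 ± 0.897 CPM (SD, n = 3) in WT, 6.496 ± 0.915 CPM in KO esiCT and 3.88 ± 0.481 CPM in KO esiHDAC4, with every WT library above those of both KO groups. *FBXW7* stood at 16.9, 23.5 and 22.8 CPM in untreated WT and 15.4, 17.2 and 18.1 CPM in untreated KO esiCT, and a gene-level count gives no check of an edited allele. Of 8 epithelial markers 7 were abundant, with a summed level of 5801 to 19387 CPM, and *VIL1* was near 0. The markers of endothelium, leukocytes and liver summed to at most 3.64 CPM, while *COL1A1* stood at 26.0 to 76.3 CPM beside *DCN* and *LUM*, which were at or near 0.

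Before treatment, *SCD* and *FASN* were the most abundant members, while the other fatty acid genes were spread down to the last places but one. Per kilobase of exon, *SCD*, which makes oleate from stearate, led in untreated KO esiCT cells with a mean of 471 CPM per kb, and *FASN*, the synthase of palmitate, followed with 197. *FDFT1*, which makes squalene, had 81.4 CPM per kb and *ACLY*, which makes cytosolic acetyl-CoA from citrate, 68.4. *SREBF2* and *SREBF1* held places 8 and 13 in the order of the members, at 35.3 and 29.8 CPM per kb. *FADS2*, a desaturase of polyunsaturated fatty acids, and *CYP51A1*, the lanosterol demethylase, were at the end with 1.56 and 1.11 CPM per kb. The value of *CYP51A1* is uncertain, because 68.2% of its exon bases lie also in a gene on the same strand, and reads in shared bases are not counted for either. Overlap with an opposite-strand lncRNA reached 37.7% for *HMGCS1*, 18.6% for *FDPS* and 15.0% for *IDI1*. Overlap with an opposite-strand protein-coding gene reached 17.2% for *ACAT2*, and overlap with a same-strand gene 36.4% for *EBP*. Processed pseudogenes of *FDPS*, *IDI1*, *HSD17B7*, *SCD* and *CYP51A1* may also take reads.

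**Figure D1:**
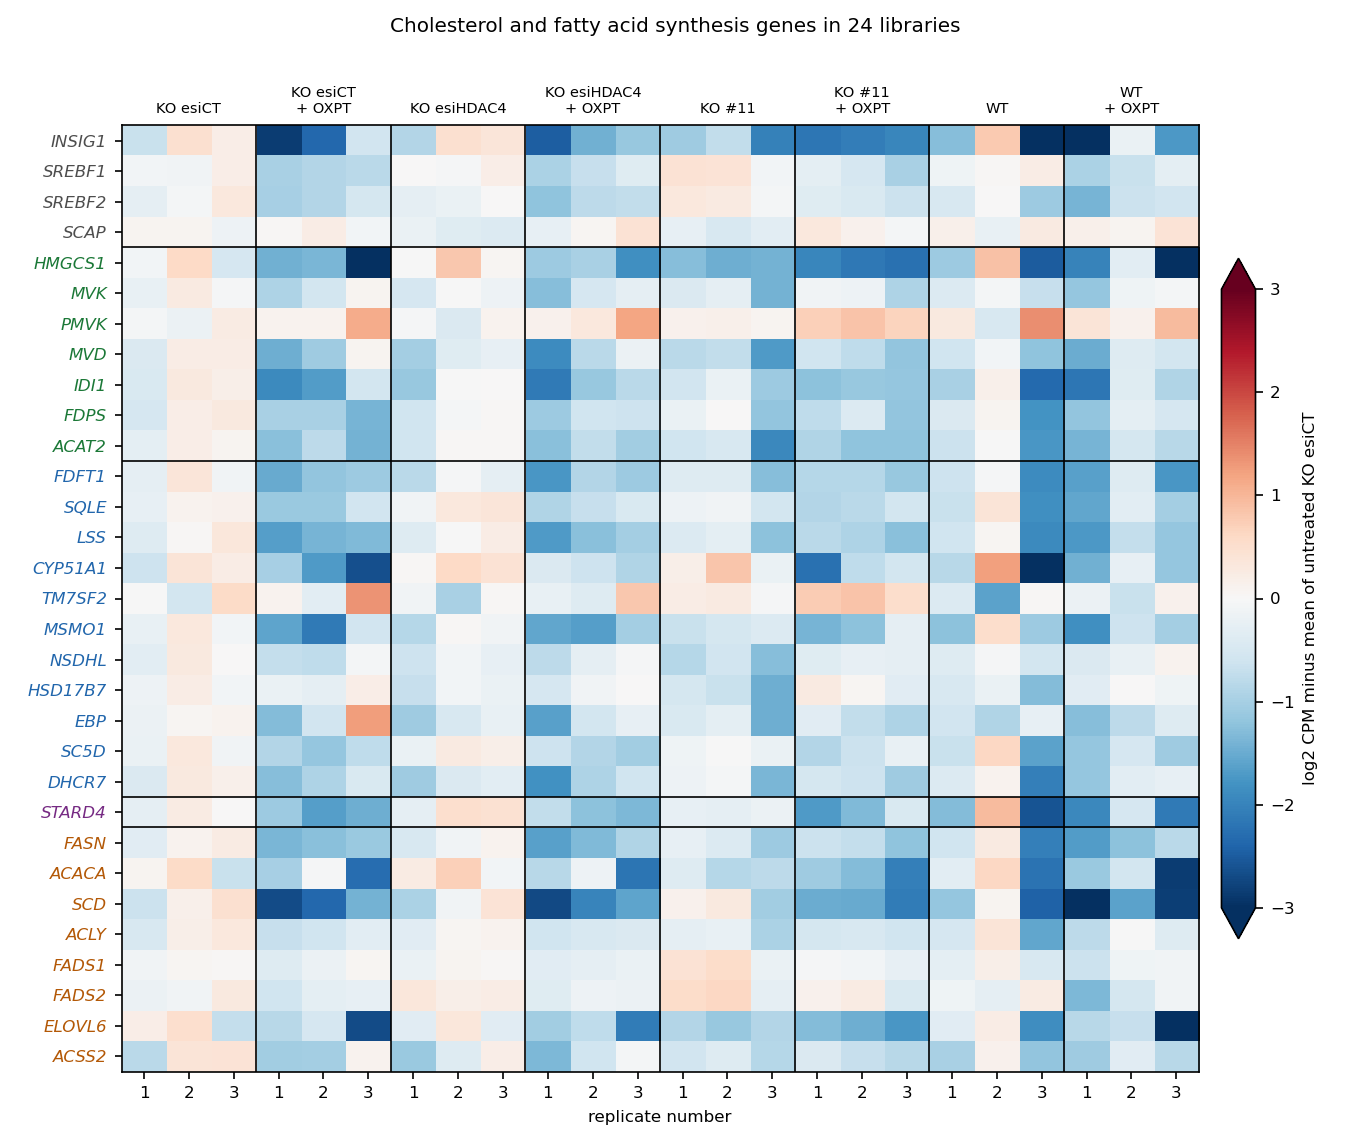
Heat map of log2 CPM in each of the 24 libraries (columns, by group and replicate number), as the difference from the mean of the 3 untreated KO esiCT libraries. Rows are the 31 members by role, with the names of the SREBP system in grey, mevalonate steps in green, squalene and sterol steps in blue, *STARD4* in purple and fatty acid genes in orange; most rows are blue in the OXPT columns, and untreated WT number 3 is blue in most rows too.

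The first question was how the lipid synthesis genes responded to OXPT in cells without *FBXW7*. In KO esiCT cells 6 of the 31 members were called, all lower: *SREBF1*, *SREBF2*, *FDFT1*, *LSS*, *FASN* and *SCD*, by 1.75 to 4.36-fold. A call needed a Benjamini-Hochberg adjusted p under 0.05 in edgeR's quasi-likelihood test over all genes tested and a change of more than 1.5-fold. Over all genes tested 5.08% were called lower and 6.23% higher, and among the members the share called lower was 19.4%. The median log2 fold change was -0.91 over the members and 0.01 over all genes tested, and 27 members had a value below 0. In bulk RNA a lower level in every cell and fewer cells with a high level cannot be told apart.

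Both SREBP genes were among those that fell. *SREBF1* (ENSG00000072310.18 at chr17:17810399-17837002, GRCh38) stood at 229.5, 226 and 281 CPM in the untreated libraries and 125, 132 and 138 CPM with OXPT. All 3 treated libraries were below all 3 untreated ones, and the log2 fold change was -0.90 ± 0.21 (SE) at an adjusted p of 0.00761 in edgeR. *SREBF2* (ENSG00000198911.12 at chr22:41833105-41907306) stood at 234, 269 and 350.1 CPM in the untreated libraries and 140.4, 153 and 195 CPM with OXPT. Its groups did not overlap either, and it fell by 0.80 ± 0.25 on the log2 scale (adjusted p = 0.0437, edgeR). *SCAP* (ENSG00000114650.21 at chr3:47413681-47477126), the escort of the SREBP precursors, stood at 114, 114 and 97.0 CPM in the untreated libraries and 111, 126 and 102 CPM with OXPT, groups that overlap, with a log2 fold change of 0.06 ± 0.18. *INSIG1* (ENSG00000186480.13 at chr7:155297776-155310235), the retention factor and itself a textbook SREBP target, stood at 82.0, 182 and 152 CPM in the untreated libraries and 18.1, 25.8 and 88.3 CPM with OXPT. Its treated library 3 was above untreated library 1, and with a log2 fold change of -1.66 ± 0.78 it did not pass the test (adjusted p = 0.183, edgeR).

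Among the enzymes, *SCD* (ENSG00000099194.6 at chr10:100347233-100364826) had the lowest log2 fold change, with 1502, 2624 and 3286 CPM in the untreated libraries and 365, 458 and 877 CPM with OXPT. The highest treated value was below the lowest untreated one, and the log2 fold change was -2.13 ± 0.56 (adjusted p = 0.0168, edgeR). *FASN* (ENSG00000169710.9 at chr17:82078338-82098294) stood at 1419.7, 1944 and 2146 CPM in the untreated libraries and 701, 758 and 842 CPM with OXPT, with a log2 fold change of -1.26 ± 0.39 (adjusted p = 0.0411, edgeR). *LSS* (ENSG00000160285.15 at chr21:46188141-46228824), which closes the sterol rings to make lanosterol, stood at 88.8, 118 and 147 CPM in the untreated libraries and 36.8, 43.9 and 46.2 CPM with OXPT. Its 3 treated libraries lay close together and well below the untreated ones, with a log2 fold change of -1.48 ± 0.37 (adjusted p = 0.0115, edgeR). *FDFT1* (ENSG00000079459.13 at chr8:11795573-11839395) stood at 335, 525 and 379 CPM in the untreated libraries and 142, 178 and 191 CPM with OXPT, and fell by 1.28 ± 0.40 on the log2 scale (adjusted p = 0.0422, edgeR).

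The other members did not pass the test in these cells, and most had values below 0. Of the 7 genes of the mevalonate steps, edgeR called 0 and DESeq2 called 3. In edgeR 4 of them had an unadjusted p under 0.05, as did 26.1% of all genes. *HMGCS1*, which makes HMG-CoA, had a log2 fold change of -1.85 ± 0.68, *IDI1*, the isomerase of isopentenyl diphosphate, -1.29 ± 0.52, *ACAT2*, which makes acetoacetyl-CoA, -1.14 ± 0.38 and *FDPS*, the farnesyl diphosphate synthase, -1.13 ± 0.38. The kinase genes *MVK* and *PMVK* had -0.42 ± 0.35 and 0.51 ± 0.37, and *MVD*, the decarboxylase, -0.70 ± 0.43. Of the 11 genes from squalene to cholesterol 2 fell and 9 had values below 0, with a median of -0.93: beside *LSS* and *FDFT1*, the demethylation gene *MSMO1* had -1.31 ± 0.45, the desaturase gene *SC5D* -0.94 ± 0.36, the epoxidase gene *SQLE* -0.93 ± 0.37 and the reductase gene *DHCR7* -0.88 ± 0.44. *TM7SF2*, a sterol reductase, and *EBP*, a sterol isomerase, were above 0 with 0.49 ± 0.43 and 0.20 ± 0.48. *STARD4*, the sterol carrier, had -1.40 ± 0.58. All 8 fatty acid genes were below 0, from *FADS1* at -0.16 ± 0.20 to *SCD*, with *ELOVL6*, the elongase of palmitate, at -1.16 ± 0.59 and *ACACA*, which makes malonyl-CoA, at -0.91 ± 0.64.

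In all, 17 of the 31 members had every treated library below every untreated one and 0 had every one above. Of all genes tested 14.8% were lower and 15.3% higher in that way. The replicate numbers paired these libraries, and with the number as a block the members called lower came to 11, beside 7.19% of all genes lower and 8.56% higher: *FDPS*, *ELOVL6*, *MSMO1*, *HMGCS1* and *ACAT2* were added to the 6. DESeq2 called 10 members, all lower (the 6 with *FDPS*, *MSMO1*, *HMGCS1* and *ACAT2*), beside 6.6% of all genes called lower and 8.44% higher by that tool. The count rested on single libraries. It was 1 without untreated KO esiCT number 3 and 2 without treated KO esiCT number 1 or number 2. It was 3 without untreated KO esiCT number 2 or treated KO #11 number 2. It was 13 without untreated WT number 2 and 14 without untreated WT number 3, which enter through the shared estimate of the spread. For fits that left out 1 library, here and below, the share of all genes called is not given, so a rise particular to the members cannot be read from them. *SREBF1* was called in all 24 of the fits that each left out 1 library, *LSS* in 23, *SCD* in 21, *FASN* in 17, *SREBF2* in 15 and *FDFT1* in 14, with highest adjusted p of 0.0391 for *SREBF1* and 0.17 for *SREBF2* in edgeR. Treated library 3, the one with most unmapped reads, did not look like the other treated libraries for every member: *ACACA* stood at 135, 191 and 80.5 CPM in the untreated libraries and 64.5, 125 and 26.3 CPM with OXPT, and *EBP* at 40.1, 47.5 and 48.7 CPM in the untreated libraries and 18.5, 30.3 and 109 CPM with OXPT. Without the libraries numbered 3 the members called lower came to 17, beside 8.33% of all genes.

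**Figure D2:**
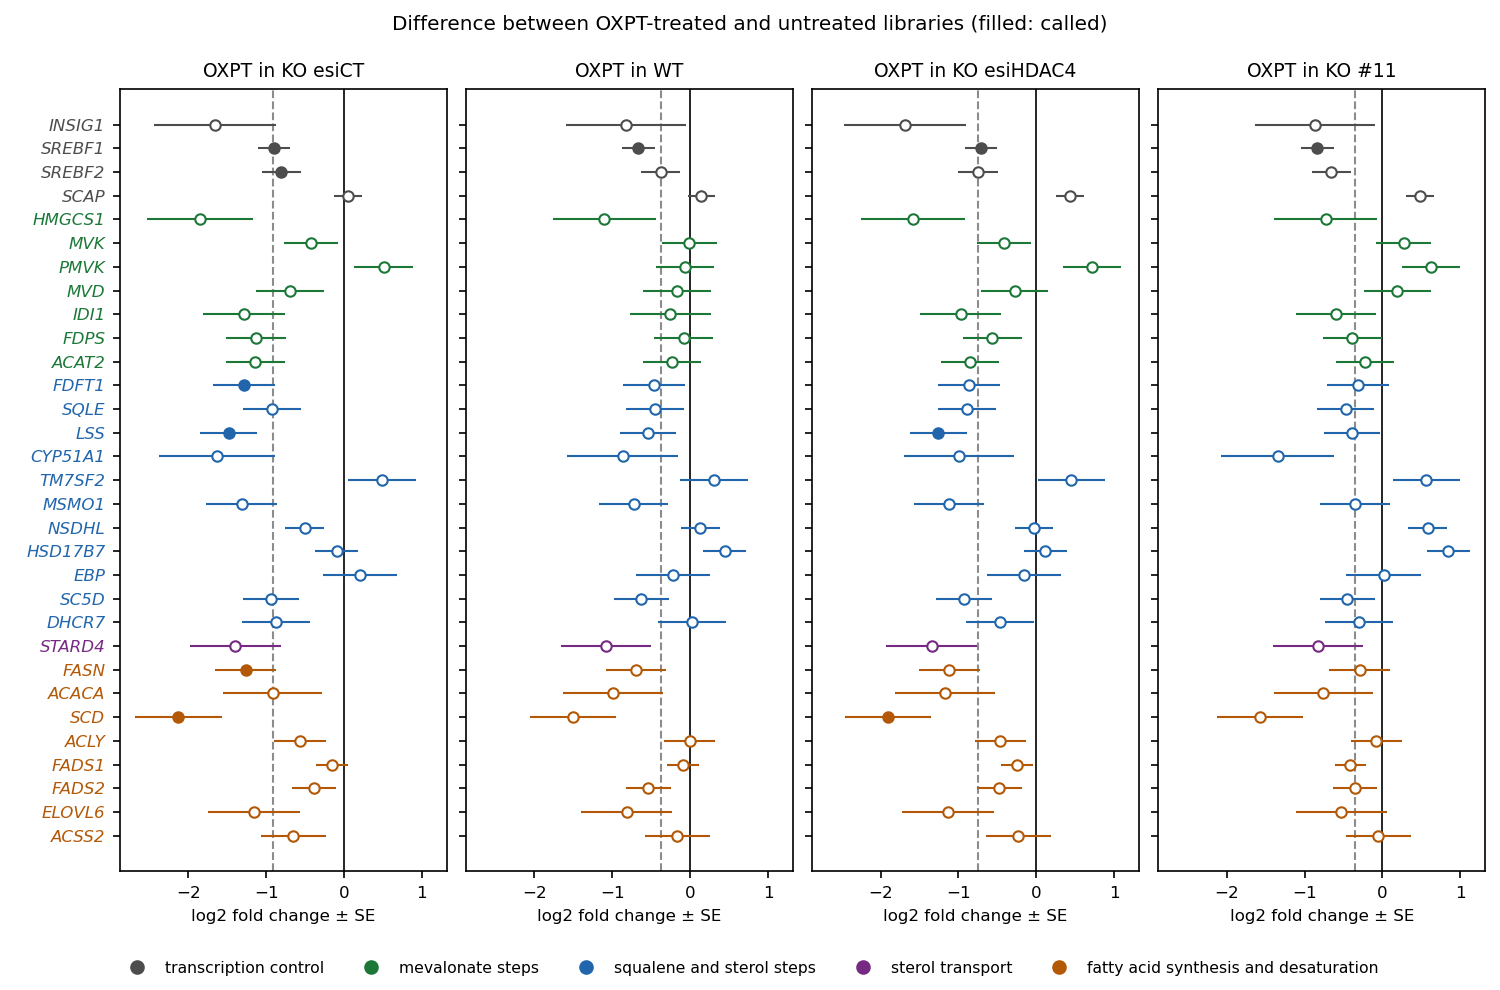
Log2 fold change with OXPT (x axis, bars ± SE) of each member in the 4 conditions, coloured by role, with called members filled and the median over the 31 members as a dashed line. The median lies at -0.91 in KO esiCT, -0.38 in WT, -0.75 in KO esiHDAC4 and -0.35 in KO #11, and *SREBF1* is filled in all 4.

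In WT cells *SREBF1* alone of the 31 members was called with OXPT, as lower. It stood at 224, 251 and 287 CPM in the untreated libraries and 127, 153 and 201 CPM with OXPT, groups that do not overlap, with a log2 fold change of -0.66 ± 0.21 (adjusted p = 0.045, edgeR). Over all genes tested 5.6% were called lower and 5.1% higher, and among the members the share called lower was 3.23%. The members' median was -0.38, against -0.06 over all genes, and 26 members had values below 0, but the median was 0.13 without untreated WT number 2. *SREBF1* was also the 1 member whose libraries did not overlap (9.81% of all genes were lower and 11.5% higher in every library). *SREBF1* was called in 10 of the 24 fits that each left out 1 library. The count was 0 without number 1 or 2 of either KO esiCT group, treated KO esiHDAC4 number 2, untreated KO esiHDAC4 number 2 or 3, untreated #11 number 1, treated #11 number 2, treated WT number 1 or untreated WT number 1 or 2. In a fit of the WT libraries alone the adjusted p of *SREBF1* was 0.218 in edgeR. The untreated WT libraries differed widely. *SCD* stood at 1053, 2475 and 439 CPM in the untreated libraries and 294, 773 and 332 CPM with OXPT, with -1.50 ± 0.55 on the log2 scale. *INSIG1* stood at 53.7, 226 and 16.2 CPM in the untreated libraries and 13.2, 115 and 39.5 CPM with OXPT, so that untreated library 3 lay below 2 of the treated ones, and its log2 fold change of -0.82 ± 0.77 turned to 0.66 without untreated WT number 2. *SREBF2* stood at 199, 284 and 131 CPM in the untreated libraries and 107, 179 and 187 CPM with OXPT, again with overlap.

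*LSS*, *FASN* and *FDFT1* overlapped too. *LSS* stood at 76.2, 121 and 30.8 CPM in the untreated libraries and 35.1, 69.8 and 51.5 CPM with OXPT, and *FASN* at 1199, 2192 and 434 CPM in the untreated libraries and 567, 768 and 1034 CPM with OXPT. *FDFT1* stood at 265, 398 and 110.3 CPM in the untreated libraries and 132, 309 and 122 CPM with OXPT. In all 3 the untreated library 3 was the lowest of the untreated ones and lay below all 3 treated libraries. *SCAP* stood at 119.8, 92.6 and 130.0 CPM in the untreated libraries and 121, 114 and 144 CPM with OXPT, with a log2 fold change of 0.14 ± 0.18. Pair by pair, the median difference over the members was -0.74 for the libraries numbered 1, -0.49 for those numbered 2 and 0.51 for those numbered 3. Without untreated WT number 3 the members called were 5, and without all libraries numbered 3 they were 6 lower, beside 11.1% of all genes. With the replicate number as a block *SCD* joined *SREBF1*, with 8.18% of all genes called lower and 7.07% higher. DESeq2 called the same 2 members, both lower, beside 8.27% of all genes called lower and 5.66% higher by that tool.

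Whether the response differed between KO and WT was tested directly. The difference between the 2 responses called 0 members in edgeR and 0 in DESeq2, and each tool called 0% of all genes. At an unadjusted p under 0.05 in edgeR it had 0 members, beside 1.63% of all genes. Its median over the members was -0.53, against 0.09 over all genes, where a value below 0 means a more negative or less positive response in KO, and it moved to -0.22 without untreated WT number 3 and to -1.11 without untreated WT number 2. The widest errors were those of genes such as *INSIG1*, with -0.84 ± 1.08, while *SREBF1* had -0.23 ± 0.29. Before treatment, KO esiCT and WT differed in 0 members by edgeR and by DESeq2, beside 0.291% (edgeR) and 0.947% (DESeq2) of all genes called. In edgeR 1 member, *HSD17B7*, and 5.74% of all genes had an unadjusted p under 0.05. The members' median was 0.47, higher in KO, with 0.16 without untreated WT number 3 and 1.03 without untreated WT number 2. *SREBF1* differed by -0.05 ± 0.21 and *SCAP* by -0.07 ± 0.18 on the log2 scale. With OXPT the median difference between KO and WT was -0.04. Both edgeR and DESeq2 called 0 members, beside 0.138% (edgeR) and 0.243% (DESeq2) of all genes. An unadjusted p under 0.05 in edgeR was reached by 0 members and 5.4% of all genes. Without the libraries numbered 3 that median was -0.28, and with 1 library left out it ran from -0.28 to 0.13. The labels of WT conflict on the esiRNA, and *HDAC4* in WT was not below its level in KO esiCT, as given above.

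**Figure D3:**
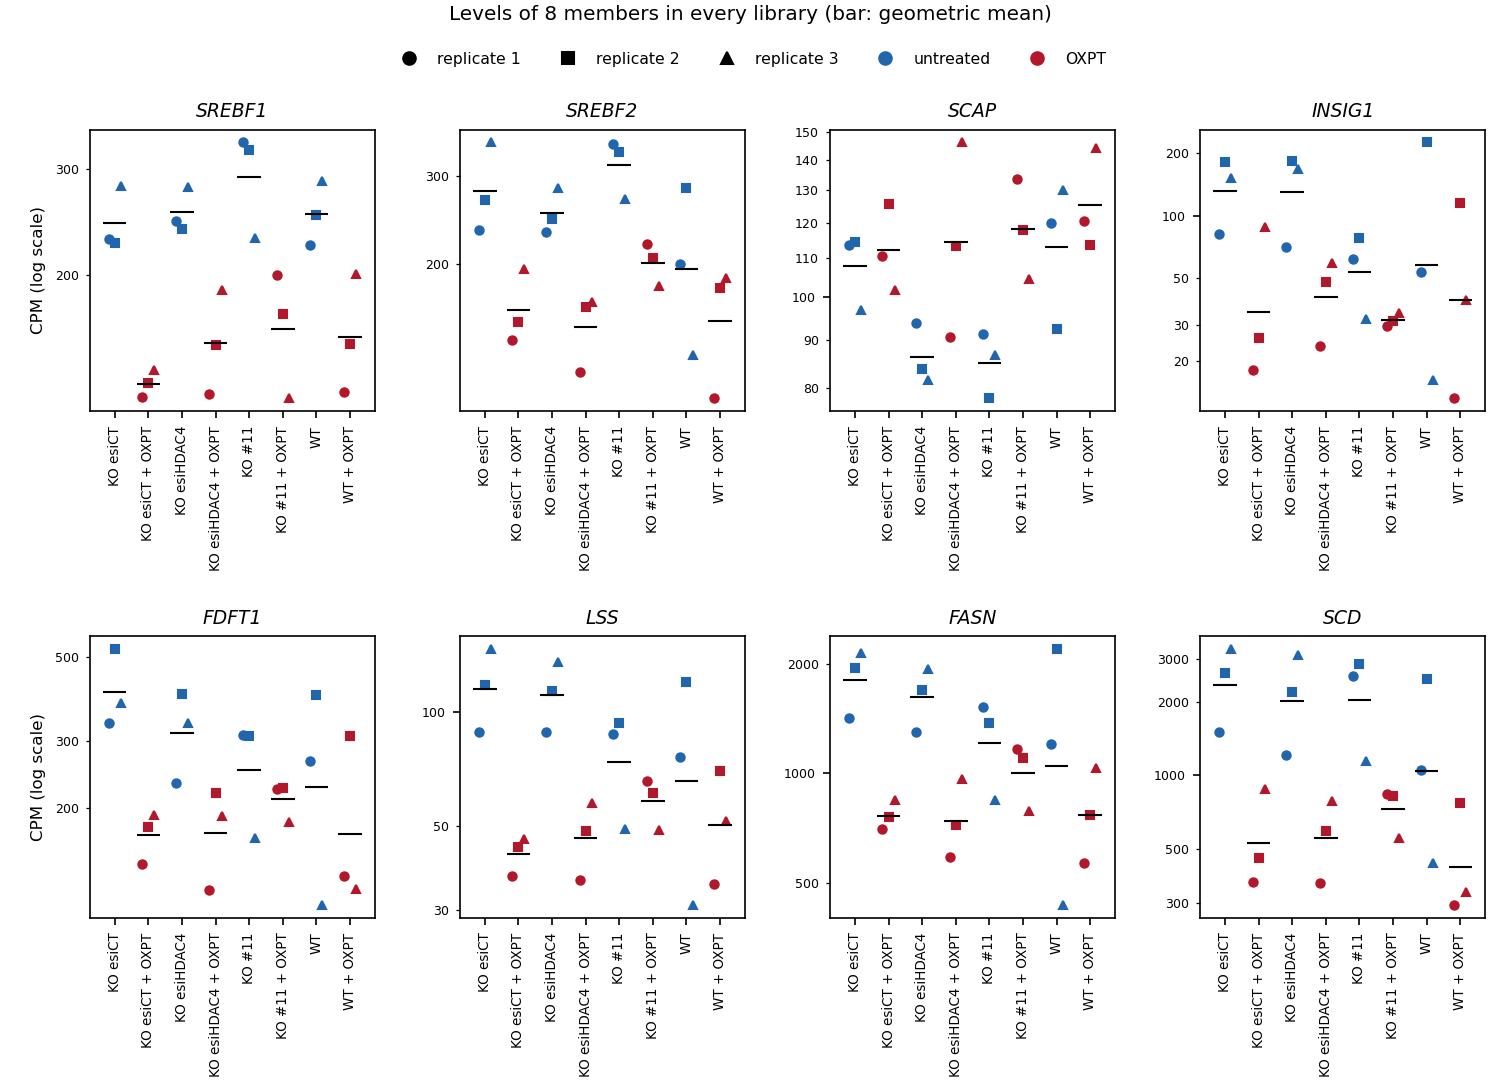
Level in CPM on a log axis of 8 members in every library, with groups along the x axis, untreated libraries in blue, OXPT in red, a marker shape per replicate number and a bar at the geometric mean. Red points lie below blue ones for *SREBF1* in all 4 conditions, while *SCAP* shows no such order in KO esiCT and WT.

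With *HDAC4* silenced in KO cells, genes of sterol and fatty acid synthesis fell with OXPT as well. Of the 31 members 3 were called, all lower: *LSS*, *SCD* and *SREBF1*, a share of 9.68%. Over all genes 5.54% were called lower and 6.44% higher. *LSS* stood at 88.8, 114 and 136 CPM in the untreated libraries and 35.9, 48.4 and 57.3 CPM with OXPT, with a log2 fold change of -1.26 ± 0.37 (adjusted p = 0.0284, edgeR). *SCD* stood at 1210.2, 2189 and 3106 CPM in the untreated libraries and 361, 590.5 and 785 CPM with OXPT, with -1.90 ± 0.56 (adjusted p = 0.0288, edgeR). Neither gene had groups that overlapped. *SREBF1* stood at 246, 239 and 280.1 CPM in the untreated libraries and 126, 152 and 189 CPM with OXPT, with -0.71 ± 0.21 (adjusted p = 0.0302, edgeR). *SREBF2* stood at 232, 246 and 283 CPM in the untreated libraries and 121, 163 and 168 CPM with OXPT, without overlap, and missed the threshold at -0.75 ± 0.25 (adjusted p = 0.0577, edgeR). The groups of *SREBF1* did not overlap, and the same held for *FASN*, *FDFT1* and *INSIG1*.

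*FASN* stood at 1298, 1691 and 1931 CPM in the untreated libraries and 587, 719 and 965 CPM with OXPT, and *FDFT1* at 233, 399 and 335 CPM in the untreated libraries and 121, 219 and 189.6 CPM with OXPT. *INSIG1* stood at 70.8, 184 and 168 CPM in the untreated libraries and 23.6, 48.3 and 59.6 CPM with OXPT. These 3 did not pass the test, with log2 fold changes of -1.12 ± 0.39, -0.87 ± 0.40 and -1.69 ± 0.78. *SCAP* stood at 93.9, 83.8 and 81.6 CPM in the untreated libraries and 90.6, 113 and 146 CPM with OXPT, the 1 gene of the SREBP system with a value above 0, at 0.43 ± 0.18. The members' median was -0.75, 18 members had every treated library below every untreated one (16.6% of all genes), and *PMVK* had every one above (18.8% of all genes). The pairs of libraries with the same number differed by a median of -0.70, -0.65 and -0.75 over the members. With the number as a block 7 members were called lower, beside 7.92% of all genes, and in a fit of these 6 libraries alone 12, beside 5.54%. DESeq2 called 5 lower, beside 7.28% of all genes called lower and 7.88% higher by that tool. The 3 calls were lost without treated number 1, where *SCAP* alone was called, as higher. The count was 0 without treated number 2, untreated number 2 or untreated number 3, and 7 without untreated WT number 2 or number 3.

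In KO cells given #11 *SREBF1* was the 1 member called with OXPT, as lower, a share of 3.23%. Over all genes 3.57% were called lower and 5.94% higher, 9.51% together. *SREBF1* stood at 332, 322 and 230.2 CPM in the untreated libraries and 199, 172 and 124 CPM with OXPT, without overlap, with a log2 fold change of -0.84 ± 0.21 (adjusted p = 0.0145, edgeR). The call was lost without untreated #11 number 1 or number 2 or treated #11 number 3, where *HSD17B7* was called higher instead, and the members called were 2 without untreated WT number 2 and 4 without untreated WT number 3. *SREBF2* stood at 348, 336 and 269 CPM in the untreated libraries and 219, 205 and 181 CPM with OXPT, and *SCD* at 2563, 2868 and 1148 CPM in the untreated libraries and 837, 824 and 553 CPM with OXPT. Neither gene overlapped between the groups, with -0.66 ± 0.25 and -1.57 ± 0.55 on the log2 scale, and neither passed the test. *INSIG1* stood at 62.3, 78.2 and 32.1 CPM in the untreated libraries and 29.4, 31.3 and 34.0 CPM with OXPT, and *SCAP* at 91.3, 78.0 and 86.7 CPM in the untreated libraries and 134, 118 and 105 CPM with OXPT. *SCAP* was higher in every treated library and *INSIG1* overlapped by 1 untreated library, with 0.48 ± 0.18 and -0.87 ± 0.77.

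None of the synthesis enzymes passed the test here. *FASN* stood at 1524, 1371 and 844 CPM in the untreated libraries and 1165, 1098 and 786 CPM with OXPT, *LSS* at 87.4, 93.8 and 48.9 CPM in the untreated libraries and 65.9, 61.0 and 48.6 CPM with OXPT and *FDFT1* at 311, 310.3 and 166 CPM in the untreated libraries and 224, 226 and 183 CPM with OXPT. All 3 overlapped, with untreated #11 number 3 lower than the other untreated libraries, and had log2 fold changes of -0.29 ± 0.39, -0.39 ± 0.36 and -0.31 ± 0.39. The members' median was -0.35, 10 members were lower in every treated library (20.1% of all genes) and 5 higher (22.4%), namely *PMVK*, *HSD17B7*, *SCAP*, *TM7SF2* and *NSDHL*. With the number as a block *SCD* also fell and *HSD17B7*, which reduces a sterol ketone, rose, with 5.61% and 8.26% of all genes called lower and higher. DESeq2 called *SREBF1* and *SCD* lower and *HSD17B7* higher, beside 5.2% of all genes called lower and 7.41% higher by that tool.

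The test of whether #11 changed the response to OXPT called 0 members in edgeR and in DESeq2, beside 0% (edgeR) and 0.291% (DESeq2) of all genes. In edgeR 3 members (*NSDHL*, *HSD17B7* and *LSS*) and 6.98% of all genes had an unadjusted p under 0.05. Its median over the members was 0.58, against -0.02 over all genes, with 29 members above 0, where a value above 0 means a less negative or more positive response with #11. *NSDHL*, which takes part in the removal of sterol methyl groups, had 1.08 ± 0.35, *LSS* 1.09 ± 0.51 and *FASN* 0.97 ± 0.55. Before OXPT, #11 against esiCT in KO cells had a median of -0.54, with 24 members below 0 and 12 lower in every library (14.8% of all genes). That median ran from -0.70 to -0.36 with 1 library left out and was -0.26 without the libraries numbered 3, where *ELOVL6* was called lower and *FADS2* higher beside 14.5% of all genes. In this comparison edgeR called 0 members and DESeq2 called 1 (*NSDHL*, lower), beside 0.51% (edgeR) and 3.31% (DESeq2) of all genes. In edgeR 5 members (*HSD17B7*, *HMGCS1*, *ACAT2*, *MVD* and *NSDHL*) and 13.8% of all genes had an unadjusted p under 0.05. *HMGCS1* stood at 78.9, 127 and 59.3 CPM with esiCT and 34.6, 30.7 and 31.6 CPM with #11, without overlap, with -1.46 ± 0.67 on the log2 scale (adjusted p = 0.339, edgeR). *SREBF1* and *SREBF2* stood at 0.26 ± 0.21 and 0.16 ± 0.25 in the same comparison, both above 0. With OXPT, #11 against esiCT had a median of 0.17, with 24 members above 0. The members called were 0 by edgeR and by DESeq2, beside 0.121% (edgeR) and 1.02% (DESeq2) of all genes. In edgeR 0 members and 10.2% of all genes had an unadjusted p under 0.05. The median ran from 0.04 to 0.37 with 1 library left out. Without the libraries numbered 3 it was 0.43, with 0 members called beside 11.5% of all genes. In that fit 9 members had an unadjusted p under 0.05 in edgeR. The share of all genes at that p is not given, so the 9 cannot be read as particular to the members. The comparisons of #11 share their esiCT libraries with those of OXPT in KO esiCT.

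Silencing of *HDAC4* itself gave no call among these mRNAs in the fit of all 24 libraries. In untreated KO cells edgeR and DESeq2 called 0 members, beside 0.00809% (edgeR) and 0.324% (DESeq2) of all genes. An unadjusted p under 0.05 in edgeR was reached by 0 members and 3.19% of all genes. The members' median was -0.16, from -0.31 to -0.01 with 1 library left out. The replicate numbers paired these libraries. With the number as a block in these 6 libraries alone *DHCR7* was called lower, beside 4.77% of all genes called. In that fit 17 members had an unadjusted p under 0.05 (edgeR). The share of all genes at that p is not given, so the 17 cannot be read as particular to the members. With the block in all 24 libraries 0 members were called. *SREBF1* differed by 0.05 ± 0.21, *SREBF2* by -0.16 ± 0.25 and *SCD* by -0.19 ± 0.54 on the log2 scale. In OXPT-treated cells the median was 0.03, from -0.13 to 0.22 with 1 library left out. Again edgeR and DESeq2 called 0 members, beside 0% (edgeR) and 0.0728% (DESeq2) of all genes. At an unadjusted p under 0.05 in edgeR there were 0 members and 3.08% of all genes. The test of whether silencing changed the OXPT response called 0 members with both tools (0% of all genes in each tool). At an unadjusted p under 0.05 in edgeR it had 0 members, beside 0.154% of all genes. Its median over the members was 0.19, from 0.0024 to 0.32 with 1 library left out. The value was 0.19 ± 0.29 for *SREBF1*, 0.22 ± 0.51 for *LSS* and 0.22 ± 0.76 for *SCD*. The errors leave room for changes in either direction.

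Most members varied together between libraries of 1 group. After removal of the group means, the median correlation over the 465 pairs of members was 0.538 across the 24 libraries, within each of which all genes share depth and RNA quality, and 366 pairs were above 0. Pairs of other genes were not measured in this way, so whether the members stand out in it was not tested. *DHCR7*, which encodes a reductase of the last steps, had a median correlation of 0.814 with the other members, *ACLY* 0.785 and *IDI1* 0.78, while *PMVK*, *SCAP* and *TM7SF2* had -0.22, -0.209 and -0.127. Relative to untreated KO esiCT, the median over the members was -0.58, 0.08 and -1.59 in the untreated WT libraries and -0.27, -0.28 and -0.95 in the untreated #11 libraries. Untreated WT number 3 was thus lower than every OXPT-treated library, with 13.8% of its reads unmapped, and the part of read quality in this was not tested. Untreated #11 number 3 had 8.97% unmapped, close to the median. In KO esiCT the 3 treated libraries lay at -0.996, -0.92 and -0.57, and the pairs of the same number differed by -0.84, -1.17 and -0.72.

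**Figure D4:**
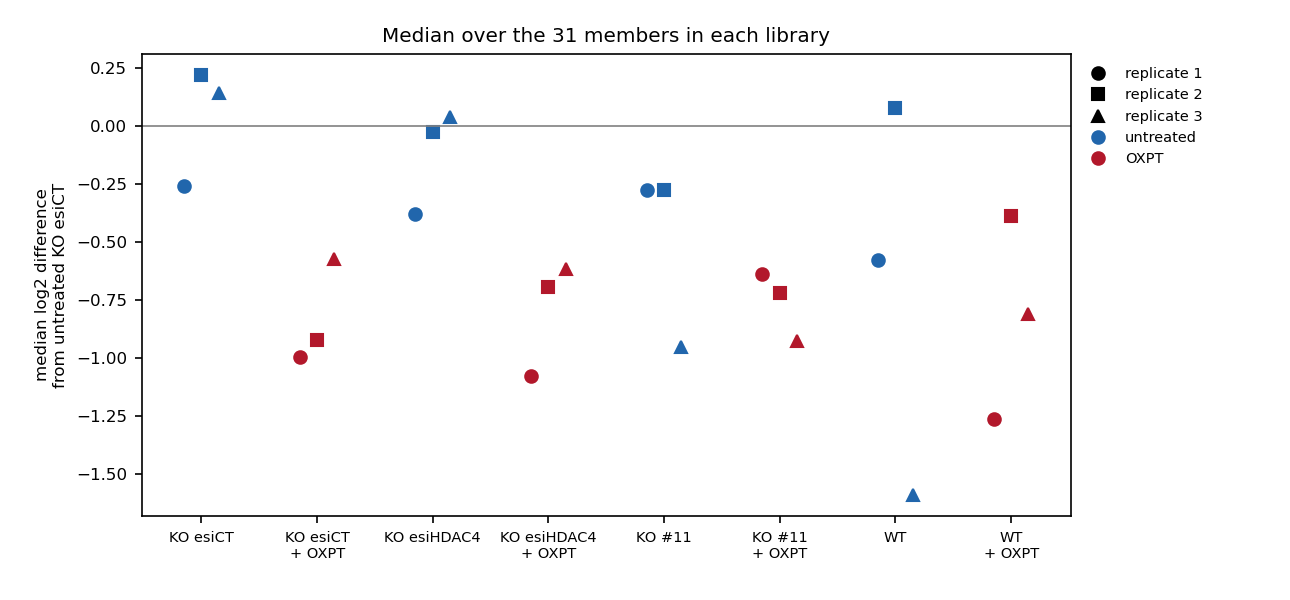
Median over the 31 members of the log2 CPM difference from the mean of untreated KO esiCT (y axis) in each library, by group (x axis), with a marker shape per replicate number and OXPT in red. The treated KO esiCT and KO esiHDAC4 libraries lie between -1.08 and -0.57, and untreated WT number 3, at -1.59, is the lowest point.

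Neighbouring parts of lipid metabolism were read from 5 further lists, beside 5.08% of all genes called lower and 6.23% higher in KO esiCT and the shares given above for the other conditions. Of 10 genes for SREBP processing and turnover 1 fell with OXPT in each of the 4 conditions, *ERLIN1*, a cholesterol-binding protein of the endoplasmic reticulum, by 0.73 on the log2 scale in KO esiCT, 0.85 in WT, 0.76 in KO esiHDAC4 and 0.999 in KO #11. DESeq2 called 2, 1, 2 and 1 of the list in the same order. *MBTPS2*, the protease of the second cleavage of SREBP, had the lowest log2 fold change of the list in KO esiCT, WT and KO esiHDAC4, at -0.89, -1.10 and -1.03, and was not called by edgeR. Of 14 tested genes for uptake, storage and efflux of sterols edgeR and DESeq2 called 0 in each of these comparisons. In KO esiCT, WT, KO esiHDAC4 and KO #11, 2, 0, 2 and 3 of them had an unadjusted p under 0.05 in edgeR. Of all genes 26.1%, 24.7%, 25.4% and 23.5% did, in the same order. In the isoprenoid branch of 10 genes 1 fell and 1 rose in KO esiCT: *PDSS2*, which makes the side chain of coenzyme Q, fell in all 4 conditions, with -1.42 ± 0.23 in KO esiCT and -1.08 ± 0.23 in WT, and *FNTA*, a farnesyltransferase subunit, rose in KO esiCT and KO esiHDAC4, with 0.83 ± 0.25 and 0.80 ± 0.25.

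The list of 24 genes for elongation, activation and esterification of fatty acids had calls in both directions. In KO esiCT 3 fell and 1 rose: *ACSL3*, which activates fatty acids, had -1.36 ± 0.29, *ACACB*, the mitochondrial counterpart of *ACACA*, -1.23 ± 0.28 and *FADS3*, of the desaturase family, 1.43 ± 0.34. In WT *ACSL5*, another activating enzyme, and *ACACB* fell, with -1.70 ± 0.32 and -1.20 ± 0.29, among 3 that fell and 1 that rose. *FADS3* rose also in KO esiHDAC4 and KO #11, with 1.40 ± 0.34 and 1.15 ± 0.34, and *DGAT1*, which makes triacylglycerol, rose in KO #11 with 1.15 ± 0.24. In KO esiHDAC4 3 fell and 3 rose, and in KO #11 1 and 2. Of 16 genes of fatty acid oxidation 1 fell and 1 rose in KO esiCT. *CPT1A*, which admits fatty acids to mitochondria, rose in KO esiCT and KO #11, with 0.62 ± 0.17 and 0.82 ± 0.17, and *HADH*, a dehydrogenase of the pathway, fell in KO esiCT, WT and KO esiHDAC4, with -0.83 ± 0.24, -0.84 ± 0.24 and -1.0004 ± 0.24, while *SLC25A20*, the carnitine carrier of mitochondria, rose in KO esiHDAC4 with 0.90 ± 0.24.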

How the data were processed

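RNA-seq of polyA mRNA was read from 24 libraries in 8 groups of 3, as the labels give them, and 12 further WT libraries with conflicting labels entered no comparison. The authors deposited raw counts per gene in the layout of STAR gene counts; the submitters' processing notes name Trimmomatic 0.39, STAR 2.7.11a and hg38, and no source used here names the annotation. The study's methods describe salmon and DESeq2, a different route from these tables. The kit in the labels is stranded, but forward and reverse totals were equal (ratio 1.00 to 1.02), so the unstranded column was used; reads in bases shared by overlapping genes (10.6% to 12.2% of reads) were not counted. Symbols came from GENCODE 44 (62686 of 62757 identifiers).

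Counts were normalized by TMM and tested with the quasi-likelihood F test of edgeR 4.0.16 in R 4.3.3, with 1 coefficient per group, on 12356 genes with a mean of at least 64 counts in a group; a prior count of 2 entered log2 CPM. The SE was taken as the absolute log2 fold change divided by the root of the F statistic. Calls needed an adjusted p under 0.05 and a fold over 1.5, as in the study's methods. The script was tested on simulated data. Of 24 replicate pairs 0 were identical, and chi-square per degree of freedom was at least 8.31. Libraries of the same replicate number deviated together: correlations over genes of deviations from the group means were 0.325 to 0.612 for OXPT in KO esiCT, 0.176 to 0.688 in WT, 0.202 to 0.677 in KO esiHDAC4 and 0.275 to 0.294 in KO #11, so blocked counts are given. They did so too between KO and WT and between esiHDAC4 and esiCT, but not between #11 and esiCT. Alternatives were RLE normalization, no count filter, the minimum in every group, DESeq2 1.42.0, reverse-strand counts, a fit of the compared groups, the block, and leaving out each library. All 31 members may be named; values in every library are given for *SREBF1*, *SREBF2*, *SCAP*, *INSIG1* and each called member, and of the other lists at most the 2 highest and 2 lowest called genes. *HMGCS1*, *HDAC4*, *FBXW7*, *ACACA* and *EBP*, shown per library, and *MBTPS2* were chosen after their values were seen. The members and lists were chosen with earlier results of these data known.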

Additional observations from a re-analysis of the deposited data

How the results depend on the processing

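Counts of called members moved with the processing, and the cause was not tested. For OXPT in KO esiCT the count of 6 became 19 without the count filter, 10 with DESeq2, 11 with the replicate block, 17 without the libraries numbered 3, 18 with the block in the compared groups alone, and 1 to 14 when 1 library was left out. For OXPT in WT the count of 1 became 6, 2, 2, 6 and 3 in the same order, 0 in the compared groups alone (edgeR), and 0 to 5 with 1 library left out. For OXPT in KO esiHDAC4 the count of 3 became 13, 5, 7, 6 and 17, 12 in the compared groups alone, and 0 to 7. For OXPT in KO #11 the count of 1 became 4, 3, 3, 6 and 10, 9 in the compared groups alone, and 0 to 4. For #11 in untreated KO the count of 0 became 4 without the filter, 1 with DESeq2, 1 with the block, 1 in the compared groups alone and 2 without the libraries numbered 3; for esiHDAC4 in untreated KO it became 1 with the block in the compared groups. Of all genes tested, the same settings called 4.35%, 15%, 15.7%, 17.4% and 11.7% for OXPT in KO esiCT, 4.56%, 13.9%, 15.3%, 20.9%, 5.54% and 0.713% in WT, 4.44%, 15.2%, 16.7%, 18%, 18.8% and 11.3% in KO esiHDAC4, 3.4%, 12.6%, 13.9%, 22.8%, 25.4% and 22.2% in KO #11, 1.12%, 3.31%, 3.21%, 4.78% and 14.5% for #11 in untreated KO and 4.77% for esiHDAC4 in untreated KO, each in the order of the counts. The replicate block changed no other count of members. Leaving out the libraries numbered 3 and the block in the compared groups alone were added after seeing the data. The numbers did not pair the libraries of the comparisons of #11 with esiCT. With 1 library left out *SCAP* with OXPT in KO esiCT ranged from -0.050 to 0.12, and *INSIG1* with OXPT in WT from -1.90 to 0.66, the highest value without untreated WT number 2. *SCAP* turned to -0.0074 without the filter, -0.05 without treated number 2 and -0.02 without untreated number 3. Of the other values of 8 members under the alternatives 931 kept direction and side of the threshold, 56 gained the call and 65 lost it. Medians over the members moved by more than their spread in 3 of the alternatives, all without untreated WT number 2. In the lowest range lay *CYP51A1*, at most 10.4 CPM.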

Other observations

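The 12 WT libraries whose labels give opposite OXPT states entered no comparison. By their own total counts, without TMM, *SREBF1* from 73.8 to 367 CPM (median 188), *SREBF2* from 96.0 to 270.4 CPM (median 143), *LSS* from 26.8 to 96.0 CPM (median 37.8), *FASN* from 435 to 1597 CPM (median 574), *FDFT1* from 48.6 to 344 CPM (median 91.2), *SCD* from 187 to 2173 CPM (median 314) and *INSIG1* from 9.37 to 236 CPM (median 23.0) were found in them. Over the 24 grouped libraries, on the same scale, *SCD* ranged from 279 to 3339 CPM (median 811) and *SREBF1* from 108 to 344 CPM (median 209).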
